A study of Mus musculus with 4 samples.

Results

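The genes described here code for Fc receptors, the proteins through which cells bind the constant part of antibodies, with a signalling chain and relatives of these receptors. They were chosen by symbol alone, as the rows for Fcgr1, Fcgr2b, Fcgr3, Fcgr4, Fcer1g, Fcer2a, Fcmr, Fcrla and Fcgrt, which are 9 of the 31053 genes in the count tables. Bone marrow mononuclear cells of C57BL/6 mice that lacked Toll-like receptor 9 (TLR9-/-) or carried the intact gene (WT) were profiled by droplet single-cell RNA sequencing from the 5′ end of transcripts. There were 2 libraries of each genotype and 1 library per mouse, numbered 1 and 2 within a genotype, and a unique molecular identifier (UMI) marked each captured molecule. No treatment is named for these mice, whose marrow was taken from femur and tibia and passed over Ficoll. The deletion affects every cell of a TLR9-/- mouse, and the genotypes were kept in separate cages. The mice were processed in 2 experiments, each with 1 mouse of each genotype, but no label says which libraries shared an experiment. Ages of these 4 mice were not given in the sources used here. After filtering, 39167 of 40545 barcodes remained, with 31210188 to 63958243 UMIs per library, and each pair of libraries had between 118 and 203 barcodes in common.

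Activating Fcγ receptors pass their signal through the common γ chain, which carries an ITAM, a tyrosine motif that recruits the kinase Syk. Fcgr1, Fcgr3 and Fcgr4 code for such receptors of mouse IgG, and Fcer1g codes for the γ chain, without which they do not reach the cell surface. Fcgr2b codes for the inhibitory IgG receptor, whose ITIM recruits the phosphatase encoded by Inpp5d, and it is the only classical Fcγ receptor of B cells. Fcer2a codes for CD23, a lectin-type IgE receptor of mature B cells, Fcmr codes for the receptor of IgM, and Fcrla codes for an intracellular relative found in B cells. Fcgrt codes for the neonatal Fc receptor, which carries IgG through endosomes and protects it from breakdown.

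On build GRCm38 (GENCODE M21), 5 of the 9 genes lay within 317 kb of chromosome 1, in the order Fcrla (chr1:170917576-170927583, minus strand), Fcgr2b (chr1:170958617-170976547, minus), Fcgr4 (chr1:171018920-171029761, plus), Fcgr3 (chr1:171051174-171064935, minus) and Fcer1g (chr1:171229572-171234365, minus). Fcmr lay elsewhere on the same chromosome (chr1:130865669-130880791, plus). Fcgr1 was at chr3:96282909-96293969, Fcgrt at chr7:45092990-45103851 and Fcer2a at chr8:3681737-3694175, all on the minus strand. Of the 90-base windows of Fcgr3 transcripts, 3.69% were also found in Fcgr2b transcripts, and within the first 500 bases, where 5′ reads begin, it was 6.25%. Fcgr2b shared 2.10% of its windows with other genes, and the other 7 genes shared none. Most windows of Fcgr3 and Fcgr2b were thus found in no other gene, but the share of reads that fell in shared windows was not measured. The results turned on 4 genes. The ratio of the activating receptor Fcgr3 to the inhibitory receptor Fcgr2b set B-lineage and mature neutrophil classes apart from the other cell classes measured, many of which overlapped. Fcgr1 was highest in a small cluster led by interferon-induced genes, and Fcrla peaked in B-cell precursors with Rag1 as a leading gene. The sequences just upstream of these 4 genes are printed. They are RefSeq sequences on GRCm38.p6, each on the gene's own strand and ending at the base before the first exon of the RefSeq gene or of an annotated transcript that overlaps the window (Fcgr3 chr1:171059404-171059644, Fcgr2b chr1:170976128-170976321, Fcgr1 chr3:96293970-96294219, Fcrla chr1:170927584-170927833, all minus). The Fcgr3 and Fcgr2b sequences lie within the GENCODE limits given above, since GENCODE has transcripts that start further upstream. Capitals mark matches on either strand to GAGGAA, the core of sites for PU.1 and other ETS factors (TTCCTC on the other strand), to TTCNNNGAA, the core of the γ-interferon activation site that STAT factors bind, and to CAGGTG, an E-box of the kind E2A binds.
Fcgr3: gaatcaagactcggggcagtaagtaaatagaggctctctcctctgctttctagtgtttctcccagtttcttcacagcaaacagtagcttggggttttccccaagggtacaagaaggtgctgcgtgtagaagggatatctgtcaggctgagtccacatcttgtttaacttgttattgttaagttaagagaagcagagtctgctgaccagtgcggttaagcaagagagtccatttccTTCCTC
Fcgr2b: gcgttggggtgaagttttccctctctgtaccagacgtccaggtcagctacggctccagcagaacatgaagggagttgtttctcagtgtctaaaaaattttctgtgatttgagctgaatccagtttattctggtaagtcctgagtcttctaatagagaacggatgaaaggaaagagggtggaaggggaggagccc
Fcgr1: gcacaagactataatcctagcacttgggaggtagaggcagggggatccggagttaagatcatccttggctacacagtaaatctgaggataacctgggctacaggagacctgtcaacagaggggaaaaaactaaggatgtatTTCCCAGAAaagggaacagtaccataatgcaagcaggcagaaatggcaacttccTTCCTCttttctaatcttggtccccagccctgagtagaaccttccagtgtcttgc
Fcrla: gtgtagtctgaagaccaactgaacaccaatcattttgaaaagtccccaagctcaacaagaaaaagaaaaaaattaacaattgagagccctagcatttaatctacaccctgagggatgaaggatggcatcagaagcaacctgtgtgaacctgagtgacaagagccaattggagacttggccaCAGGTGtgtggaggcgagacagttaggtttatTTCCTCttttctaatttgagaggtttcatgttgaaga
Within the upstream windows of the 9 genes, which were 142 to 250 bases long, GAGGAA was found in 4 (Fcgr1, Fcgr3, Fcgr4 and Fcrla), TTCNNNGAA in Fcgr1 alone and CAGGTG in Fcrla alone. Of all 32851 RefSeq promoters, 23.3%, 7.02% and 17.2% held these letters in the 250 bases upstream. The TTCNNNGAA match of Fcgr1 began 109 bases before the end of its sequence. A match describes letters only, and no binding was measured in these cells.

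Cells were grouped into marker-defined classes without using the Fc receptor genes, and each class is called by the type its markers resemble, so that classical monocyte-like cells are those with markers of classical monocytes. In 20 classes every library had at least 10 cells. Levels are given as CPM, the UMIs of a gene scaled to 1000000 UMIs of the class in a library, and since a 5′ library counts each molecule once, they do not grow with transcript length. Differences between classes are described without a test, since the classes were defined from the same cells. The classes differed widely in which Fc receptor genes they held, as shown by the map of mean levels.

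**Figure D1:**
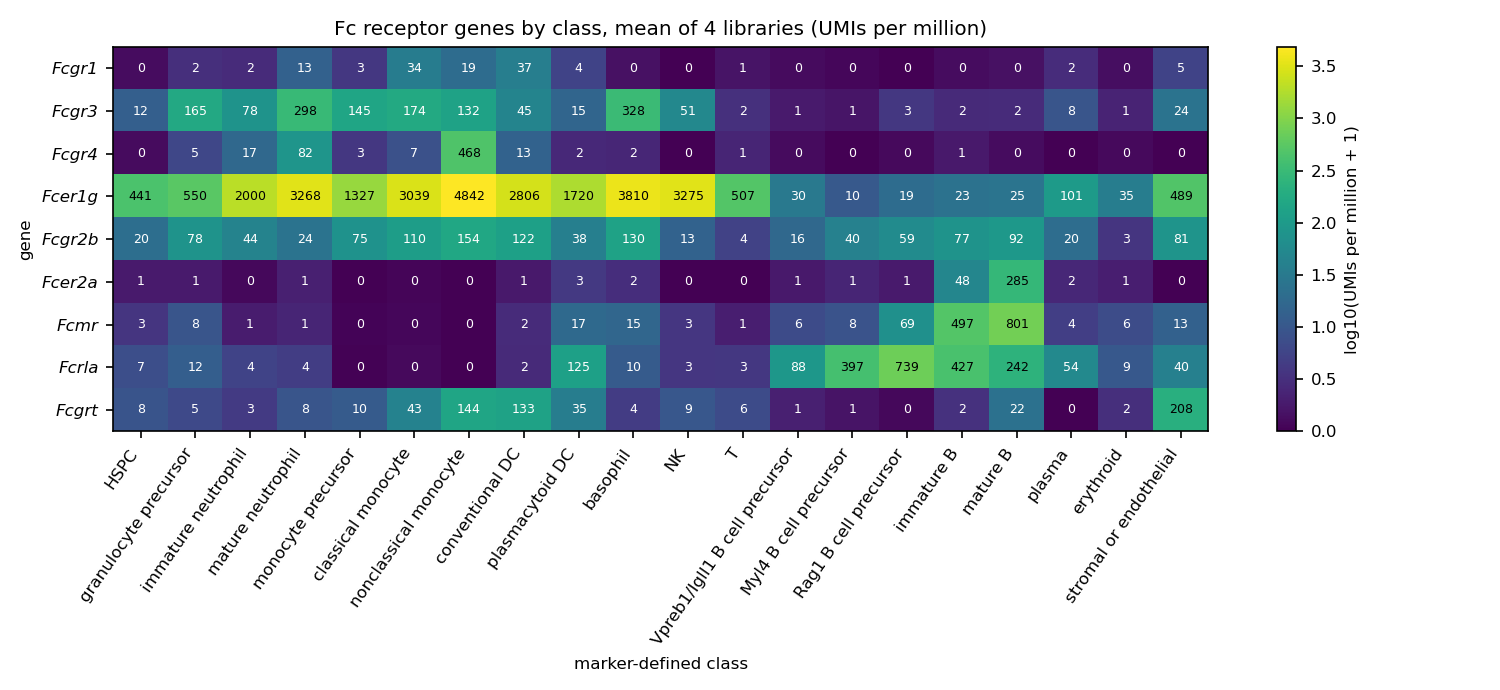
Mean level of each gene over the 4 libraries in each of the 20 classes, printed in CPM and coloured by log10(CPM + 1). Fcer1g was high in most myeloid classes and in NK cell-like cells, Fcgr4 stood out in nonclassical monocyte-like cells, and Fcrla, Fcmr and Fcer2a were high in successive B-lineage classes.

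Fcer1g, the γ chain, was the most widely detected member and passed the filter on low counts in all 20 classes. Nonclassical monocyte-like cells had 5173.7 and 4454.0 CPM in TLR9-/- libraries 1 and 2 and 5427.8 and 4313.2 in WT libraries 1 and 2. Every library of this class lay above every library of the class next in order, basophil-like cells, at 3619.1 to 4197.1. NK cell-like cells (2766.3 to 3731.6), mature neutrophil-like cells (3118.2 to 3383.3), classical monocyte-like cells (2872.2 to 3391.7) and conventional dendritic cell-like cells (2492.6 to 3170.2) followed, and neighbours in that order overlapped. Within the neutrophil series the level rose from 500.3 to 677.4 in granulocyte precursor-like cells through 1809.5 to 2181.0 in immature to 3118.2 to 3383.3 in mature neutrophil-like cells, with no overlap between steps. B-lineage classes other than plasma cell-like cells had mean levels of 9.68 to 29.9. T cell-like cells had 270.0 to 793.5, while the summed level of the monocyte genes Ly6c2, Lyz2, Ccr2 and F13a1 in them was 1143 to 1901 CPM, and its part in the Fcer1g level was not tested.

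Fcgr3, the low-affinity activating IgG receptor, was highest in basophil-like cells, with 321.4 and 340.1 CPM in TLR9-/- mice against 295.3 and 355.7 in WT mice. Mature neutrophil-like cells overlapped with them at 347.4 and 306.3 against 257.4 and 282.3. All libraries of both classes lay above classical monocyte-like cells, at 177.2 and 209.3 against 144.8 and 166.3. Granulocyte precursor-like cells had 171.1 and 195.4 against 151.0 and 143.6, whereas the immature neutrophil-like cells between the precursor and mature classes had only 72.6 and 102.2 against 63.6 and 74.6. The level along the neutrophil series was thus high, low and high again, in every library. In these immature cells, the neutrophil granule and alarmin genes S100a8, S100a9, Camp, Ngp, Ltf and Lcn2 together took 452580 to 486144 CPM, against 256455 to 328450 in mature cells, and the part of this share in the lower Fcgr3 level was not tested. Of the 138 Fcgr3 UMIs in plasmacytoid dendritic cell-like cells, 122 came from a cluster of 121 cells, of which 25.6% were marked as doublets.

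NK cells are known for the receptor that Fcgr3 encodes, but NK cell-like cells held only 54 Fcgr3 UMIs in all, at 47.1 and 72.4 CPM in TLR9-/- mice against 50.4 and 33.7 in WT mice. Between 5.88% and 17.2% of them had a Fcgr3 UMI, at a median of 1160 to 3039 UMIs per cell. In mature B cell-like cells, which should lack the gene, 0.0943% to 0.499% had one, at a median of 998 to 1676.5 UMIs per cell. After each cell was thinned to 500 UMIs, the shares were 0% to 6.90% in NK cell-like cells and 0% to 0.199% in mature B cell-like cells, and none of the 51 NK cell-like cells of WT library 2 then had a UMI, which allows a share of up to 5.88%. Shares and limits cover counting error only. The γ chain was at 2766.3 to 3731.6 CPM in the same cells.

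Fcgr4, the activating receptor of IgG2 subclasses, was at its highest level in nonclassical monocyte-like cells. They had 389.0 and 510.0 CPM in TLR9-/- mice against 512.4 and 462.1 in WT mice, from 20, 15, 27 and 9 UMIs in 18 to 42 cells per library. Mature neutrophil-like cells came next at 65.1 to 110.3, and immature neutrophil-like cells followed at 13.5 to 22.0, all 3 classes without overlap. Classical monocyte-like cells had 3.75 to 14.2. Fcgr4 had 0 UMIs in the NK cell-like cells of every library, and counts of 0 in so few cells allow up to 1.39% to 5.88% of them to have a UMI. Over all cells, 35.3% to 74.8% of all Fcgr4 UMIs came from the neutrophil series and 17.0% to 30.7% from monocyte classes. These classes held 15.1% to 34.5% and 9.82% to 25.7% of the UMIs of all genes.

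Fcgr1, the high-affinity receptor of IgG2a, was sparse, with 107 to 415 UMIs per library over all cells. Conventional dendritic cell-like cells (25.7 to 58.2 CPM) and classical monocyte-like cells (22.6 to 51.6) had similar, overlapping levels, and in both classes WT library 1 was highest. The monocyte genes Ly6c2, Lyz2, Ccr2 and F13a1 together had 6125 to 7916 CPM in the former class and 21082 to 24757 in the latter. Their part in the Fcgr1 level of conventional dendritic cell-like cells was not tested. Among classical monocyte-like cells, a small cluster of 42 cells led by the interferon-induced genes Ifit3, Cxcl10 and Irf7, chosen after its values were seen, held 252.4 and 290.1 CPM in TLR9-/- mice against 332.2 and 690.1 in WT mice, from 4, 15, 21 and 8 UMIs. The other classical monocyte-like cells of the same libraries held 25.2, 35.4, 44.3 and 19.7. The rise was not particular to Fcgr1. Fcgr2b had 252.4 and 251.4 CPM in the cluster in TLR9-/- mice and 284.7 in WT library 1. In the other cells of these libraries it had 102.5, 109.9 and 125.7. Fcgr3 was also higher in the cluster in these libraries. In WT library 2 neither was higher, with 0 Fcgr2b and 1 Fcgr3 UMI in the cluster. The cluster contributed 4 and 15 cells in TLR9-/- mice against 20 and 3 in WT mice, so that WT library 1, with the highest Fcgr1 level, also had the most such cells. Without them, classical monocyte-like cells of that library still had the highest level of the 4. The Fcgr1 upstream sequence printed above is the only one of the 9 with a TTCNNNGAA match, but nothing here links the match to these cells.

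Fcgr2b, the inhibitory receptor, was held by myeloid and B-lineage classes alike. It had 136.0 to 189.8 CPM in nonclassical monocyte-like cells, 114.6 to 152.9 in basophil-like cells, 111.2 to 130.1 in conventional dendritic cell-like cells and 95.4 to 129.7 in classical monocyte-like cells, and each overlapped with the next. Mature B cell-like cells had 109.3 and 86.5 in TLR9-/- mice against 94.0 and 78.8 in WT mice. Along the B lineage the mean level rose from 16.3 in Vpreb1/Igll1 precursors to 40.0 in Myl4 precursors, 58.8 in Rag1 precursors, 77.1 in immature and 92.2 in mature B cell-like cells, where the precursor classes are named by their leading genes. In the neutrophil series it moved in the other direction, with 72.1 to 86.4 in precursor-like, 38.6 to 51.3 in immature and 16.4 to 44.1 in mature cells. The last range came from 46 UMIs in all, and only in WT library 1, with 6 UMIs, did the mature cells reach the immature range. The part of the neutrophil granule and alarmin genes' share, given above for Fcgr3, in the lower Fcgr2b level of immature cells was not tested. Neutrophil classes supplied 19.1% to 37.5% of all Fcgr2b UMIs, monocyte classes 20.8% to 40.2% and B-lineage classes 8.60% to 27.7%. Of the UMIs of all genes, these classes held 15.1% to 34.5%, 9.82% to 25.7% and 9.43% to 29.7%. The neutrophil and B-lineage shares of Fcgr2b were thus close to those of all genes.

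**Figure D2:**
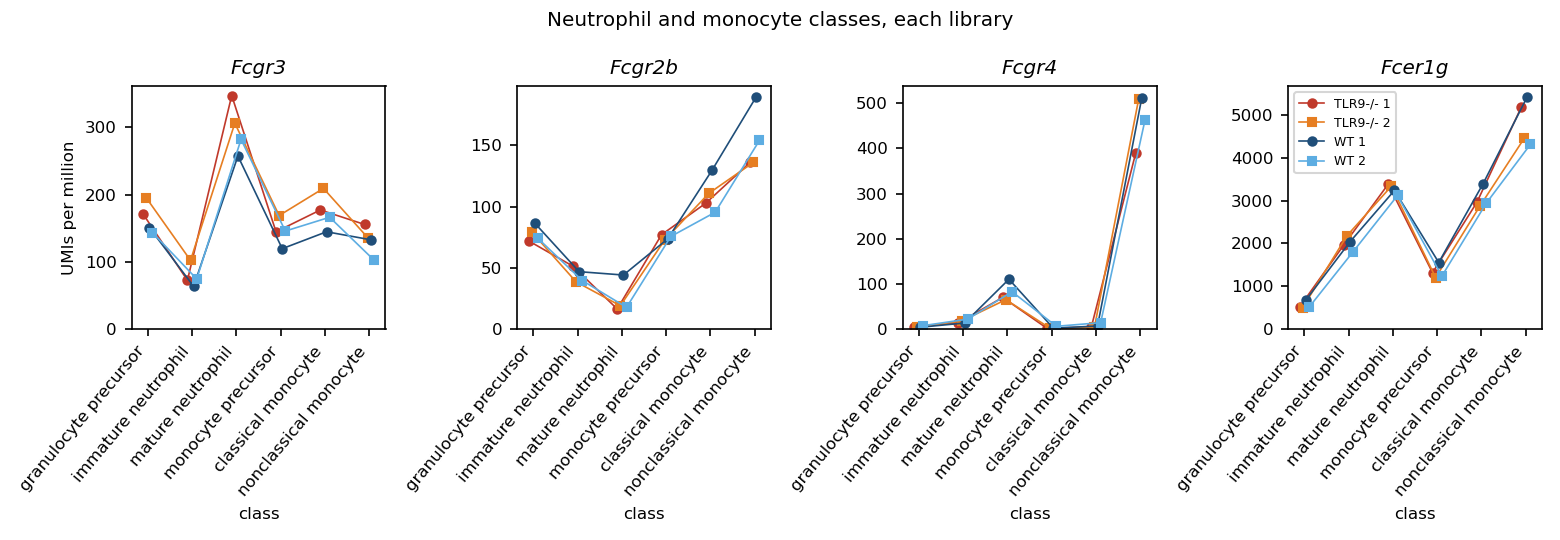
Level of Fcgr3, Fcgr2b, Fcgr4 and Fcer1g, in CPM (vertical axis, from 0), in 3 neutrophil and 3 monocyte classes, with 1 marker per library (red and orange TLR9-/-, blue WT). Fcgr3 dipped in immature and was high in mature neutrophil-like cells while Fcgr2b was highest in the precursors of that series, and Fcgr4 stood at 389.0 to 512.4 in nonclassical monocyte-like cells and at no more than 110.3 in the others.

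The balance of the activating Fcgr3 and the inhibitory Fcgr2b was measured as the ratio of their UMIs after adding 1 to each, in the 16 classes with at least 10 UMIs of both together in every library. Mature neutrophil-like cells had the highest ratio, 19.5 and 15.2 in TLR9-/- mice against 5.14 and 14.8 in WT mice, although WT library 1 rested on 35 Fcgr3 and 6 Fcgr2b UMIs. Basophil-like cells (2.26 to 2.95), granulocyte precursor-like cells (1.74 to 2.46), monocyte precursor-like cells (1.62 to 2.32), immature neutrophil-like cells (1.35 to 2.64) and classical monocyte-like cells (1.12 to 1.89) all lay above 1 in every library. Conventional dendritic cell-like cells lay below 1 in every library, at 0.309 to 0.453. In the 5 B-lineage classes the ratio was 0.0121 to 0.184, since Fcgr3 had no more than 6 UMIs in any library of any of them. Ratios also lay below 1 in every library of hematopoietic stem and progenitor cell-like cells (0.305 to 0.8) and erythroid-like cells (0.333 to 0.722). The inhibitory gene thus exceeded the activating gene in dendritic, B-lineage, erythroid and stem and progenitor classes. The activating gene exceeded the inhibitory one in the neutrophil and basophil classes and in both monocyte classes measured.

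**Figure D3:**
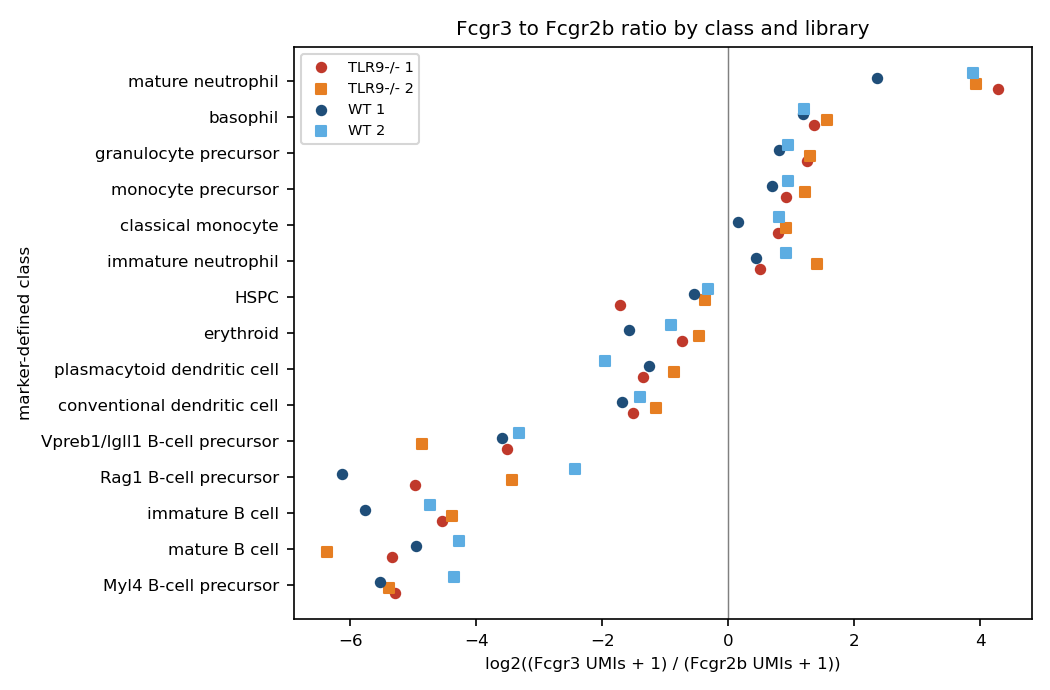
Ratio of Fcgr3 to Fcgr2b UMIs on the log2 scale (horizontal axis; 0 means equal UMIs) in 15 classes, with 1 marker per library. B-lineage classes lay at the left, conventional and plasmacytoid dendritic cell-like cells below 0, and mature neutrophil-like cells at the right; the macrophage-like class, with 5 to 23 cells per library, is left out.

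Fcrla appeared before the other B-cell members. It had 71.5 to 100.3 CPM in Vpreb1/Igll1 precursors and 344.4 to 481.8 in Myl4 precursors. It was highest in Rag1 precursors, at 728.4 and 891.2 in TLR9-/- mice against 610.9 and 726.9 in WT mice. It then dropped to 284.8 to 596.3 in immature and 214.6 to 274.7 in mature B cell-like cells. Plasmacytoid dendritic cell-like cells also held Fcrla, at 97.0 to 153.8, and there 968 of 1069 UMIs came from their main cluster of 2362 cells. The summed level of Igkc, Ighm, Cd79a and Cd79b was 1308 to 1934 CPM in that class and 5315 to 6348 in Myl4 precursors, and the part of shed B-lineage RNA in this Fcrla level was not tested.

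Fcmr and Fcer2a came later. Fcmr had 2.90 to 9.91 CPM in Vpreb1/Igll1 precursors, 49.2 to 99.7 in Rag1 precursors, 488.4 to 510.8 in immature and 744.6 to 904.0 in mature B cell-like cells. The last 3 steps did not overlap. Fcer2a was almost restricted to the mature stage, with 243.2 and 405.8 in TLR9-/- mice against 225.8 and 267.2 in WT mice, compared with 36.2 to 61.8 in immature B cell-like cells and at most 4.31 in any library of any other class. B-lineage classes supplied 87.6% to 90.9% of all Fcer2a UMIs, 84.5% to 88.6% of Fcmr and 75.1% to 84.0% of Fcrla, against 9.43% to 29.7% of the UMIs of all genes. In plasma cell-like cells all 3 were low: Fcer2a had 2 UMIs and Fcmr 4 UMIs in all, and Fcrla had 20.3 to 78.9 CPM.

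**Figure D4:**
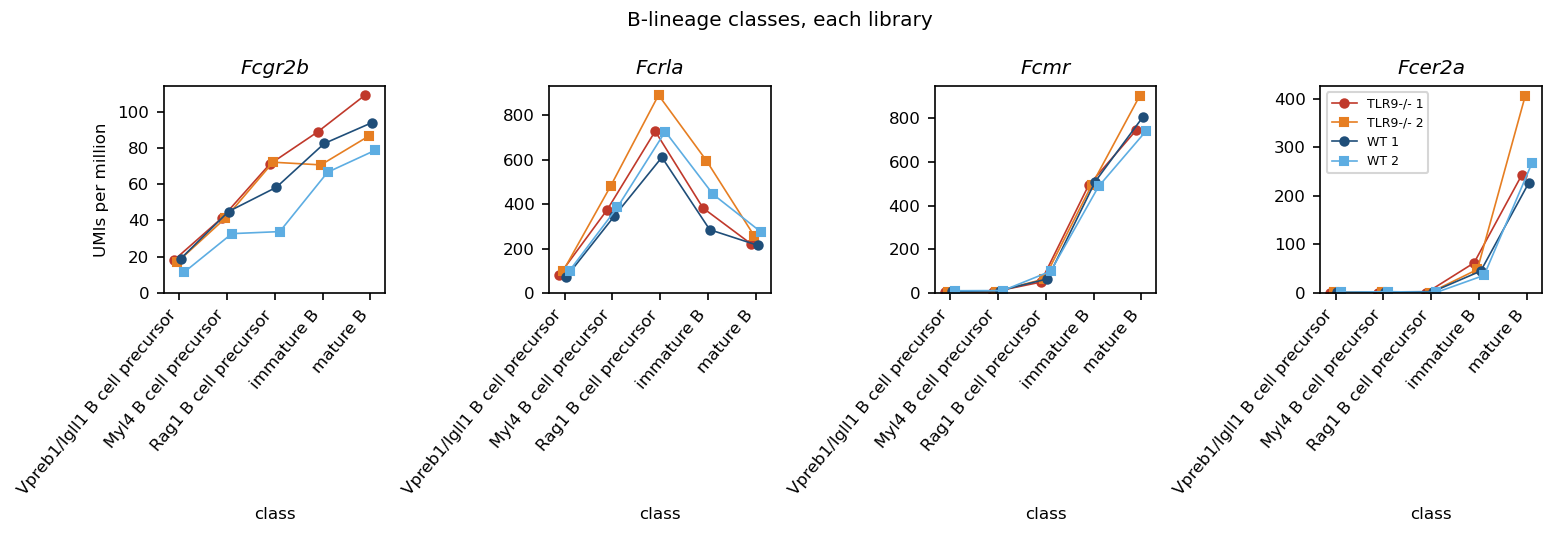
Level of Fcgr2b, Fcrla, Fcmr and Fcer2a, in CPM (vertical axis, from 0), along 5 B-lineage classes, with 1 marker per library (red and orange TLR9-/-, blue WT). Fcrla peaked in Rag1 precursors, Fcmr was high from immature cells on, and Fcer2a was high in mature B cell-like cells, in all 4 libraries.

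Fcgrt, the transport receptor, followed none of these lineages. Its highest medians were in stromal or endothelial cell-like cells (157.7 to 254.0 CPM, 12 to 17 cells per library), nonclassical monocyte-like cells (58.3 to 238.0, from 18 UMIs in all) and conventional dendritic cell-like cells (117.0 to 151.6). The nonclassical monocyte-like cells overlapped with both others, which did not overlap with each other. Classical monocyte-like cells had 37.3 to 51.4 and plasmacytoid dendritic cell-like cells 29.1 to 41.7. Mature B cell-like cells had 10.0 to 42.5 and immature neutrophil-like cells 1.82 to 4.89.

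Across the 20 classes, the gene outside the 9 whose mean log2(CPM + 10) was most like that of Fcgr1 was Ptpro (Pearson r = 0.96), that of Fcgr3 was Gsr (0.92), that of Fcgr4 was Treml4 (0.97) and that of Fcer1g was Anxa2 (0.97), followed by Tyrobp (0.96), which codes for another ITAM adaptor. Fcgr2b was most like Napsa (0.89). Fcer2a was most like Cr2, which codes for a complement receptor of mature B cells (0.998), with Fcrl5 also among its nearest 3 (0.98). Fcmr was most like Ms4a1, which codes for CD20 (0.98), and Fcrla like Blnk, which codes for a B-cell signalling adaptor (0.97). Fcgrt was most like Sdc3 (0.94). These values describe 20 classes that share 4 libraries.

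The comparison of genotypes asked whether the receptors differed between TLR9-/- and WT cells of the same class. Of the 180 combinations of gene and class, 86 passed the filter on low counts, and none of them was called by edgeR's quasi-likelihood test at a Benjamini-Hochberg adjusted p below 0.05 over all genes of the class, where 0.314% of all tested genes were called over the 20 classes. The lowest adjusted p was 0.0713. The main fits here and below had no term for the experiments. Fits with the replicate number as a block called some combinations, which the closing section lists. DESeq2 called 1 combination, Fcrla in erythroid-like cells, against 0.356% of all tested genes. At an unadjusted p below 0.05, edgeR found 12 of 86 (14.0%, against 6.76% of all genes), all lower in TLR9-/- cells, and of these 5 were for Fcmr, 4 for Fcrla and 1 each for Fcer1g, Fcgr4 and Fcgrt. Both TLR9-/- libraries lay above or below both WT libraries in 32 of 86 combinations, or 37.2%, against 37% of all genes tested. The standard error of the log2 difference was 0.15 to 0.80 with a median of 0.29, so that modest differences could not be resolved with 2 mice per genotype.

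**Figure D5:**
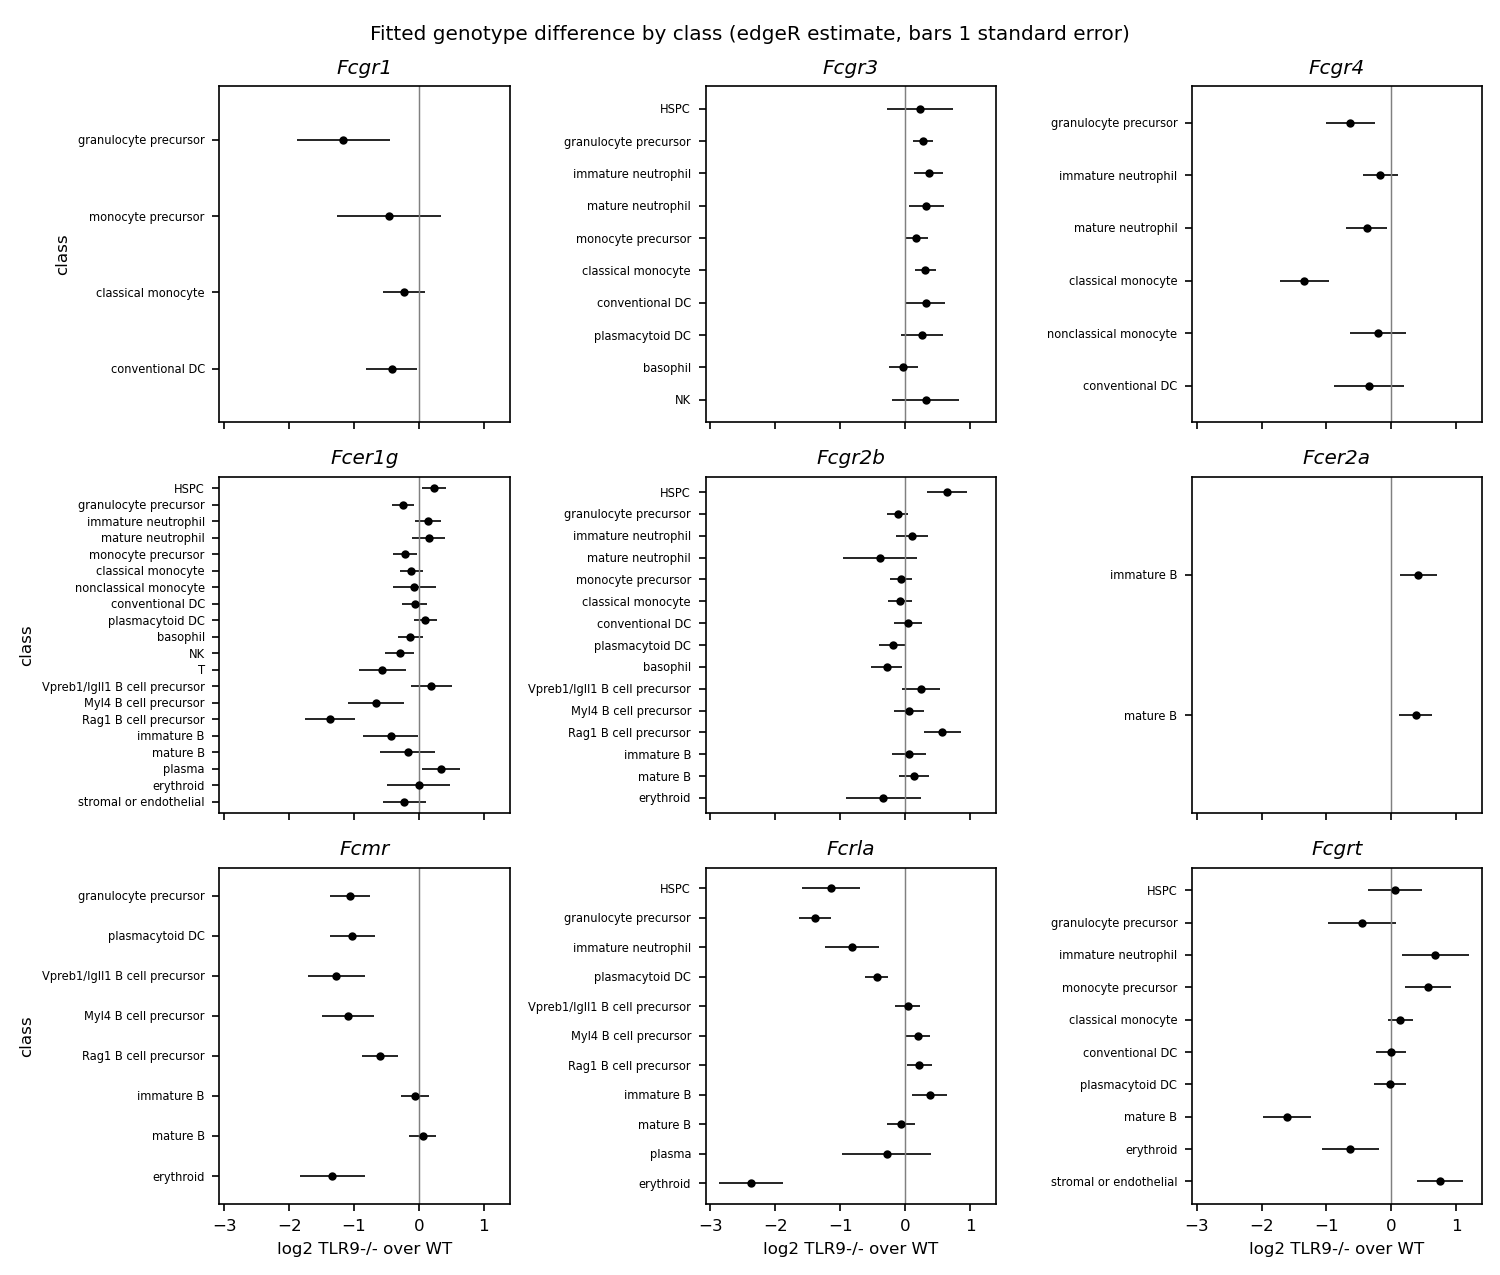
Fitted log2 difference between TLR9-/- and WT libraries (horizontal axis; positive is higher in TLR9-/-) for each gene in each class where it passed the filter, with bars of 1 standard error. No point passed the adjusted threshold; Fcgr3 differences were small and mostly positive, and Fcmr and Fcrla differences were negative mainly outside the B-cell classes where these genes were high.

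Among activating receptors, the Fcgr3 levels given above were higher in both TLR9-/- libraries than in both WT libraries in classical monocyte-like cells (log2 difference 0.31, standard error 0.17, adjusted p = 0.786), a pattern that 19% of genes in that class showed. It was likewise apart in granulocyte precursor-like cells (0.28, 0.15, adjusted p = 0.605, against 23.1% of genes) and in mature neutrophil-like cells (0.33, 0.27, adjusted p = 1.00, against 13.7%), and in conventional dendritic cell-like cells, where 20.3% of genes were. In immature neutrophil-like cells the libraries overlapped (0.36, 0.23, adjusted p = 0.996), as they did in NK cell-like cells (0.32, 0.52, adjusted p = 0.972). Fcgr3 passed the filter in 10 classes, with differences of −0.029 to 0.36 and a median of 0.29, and 9 of the 10 were positive. The median over all genes tested was −0.022 to 0.0089 in each of these classes. All 10 classes come from the same mice, so their signs are not independent of each other. The share of all genes whose signs agree in as many classes was not calculated, so this agreement was not tested. The other activating receptors went the other way. Fcgr4 was positive in 0 of 6 classes (median −0.36) and Fcgr1 in 0 of 4 (median −0.44), which was not tested either.

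Fcer1g differed by −0.12 (standard error 0.18, adjusted p = 0.940) in classical monocyte-like cells, by 0.15 (0.25, adjusted p = 1.00) in mature neutrophil-like cells and by −0.29 (0.22, adjusted p = 0.957) in NK cell-like cells. In Rag1 precursors, where it was near the floor, it had 11.5 and 10.3 CPM in TLR9-/- mice against 24.5 and 31.1 in WT mice, with a log2 difference of −1.38 (0.39, adjusted p = 0.354). The 6 neutrophil genes in the same cells had 980 and 556 against 500 and 2497 CPM, and their part in this was not tested. Fcgr1 in classical monocyte-like cells differed by −0.23 (0.33, adjusted p = 0.936), while without WT library 1 the difference was 0.49, and without the 42 interferon-led cells it was −0.074. Fcgr4 in nonclassical monocyte-like cells differed by −0.20 (0.43, adjusted p = 1.00), and in mature neutrophil-like cells by −0.38 (0.31, adjusted p = 1.00).

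In classical monocyte-like cells, Fcgr4 had 4.59 and 3.75 CPM in TLR9-/- mice against 6.74 and 14.2 in WT mice, from 31, 28, 17 and 39 UMIs. Both WT libraries were higher, as for 1762 of the 9837 genes tested in this class. The log2 difference for Fcgr4 was −1.34 (standard error 0.38, adjusted p = 0.380). Leaving out WT library 2 reduced it to −0.70. The 6 neutrophil genes were at 729 and 800 CPM in TLR9-/- mice against 2010 and 1857 in WT mice of this class, and mature neutrophil-like cells were rich in Fcgr4, but the part of neutrophil RNA in the difference was not tested.

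The inhibitory Fcgr2b did not differ detectably. The log2 difference was −0.076 (standard error 0.19, adjusted p = 0.970) in classical monocyte-like cells, −0.11 (0.16, adjusted p = 0.841) in granulocyte precursor-like cells and 0.14 (0.24, adjusted p = 0.986) in mature B cell-like cells. In Rag1 precursors it had 71.0 and 72.1 CPM in TLR9-/- mice against 58.3 and 33.8 in WT mice, with a difference of 0.57 (0.29, adjusted p = 0.884). Both TLR9-/- libraries were above both WT libraries, as for 1625 of the 7372 genes tested in that class. Without WT library 2, which was lowest, the difference became 0.22. Hematopoietic stem and progenitor cell-like cells had 23.8 and 24.9 against 20.9 and 11.1, with a difference of 0.64 (0.31, adjusted p = 0.563). Here too the TLR9-/- libraries were both above, as for 1952 of the 9695 genes tested. The difference was 0.23 without WT library 2 and −0.39 with the Fc receptor genes kept in the clustering. Both TLR9-/- libraries lay below both WT libraries in basophil-like (−0.29) and plasmacytoid dendritic cell-like cells (−0.19). So did 1027 of 6735 genes tested in the former and 1647 of 9485 in the latter. Over the 15 classes where Fcgr2b passed the filter, 8 differences were positive, with a median of 0.045.

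The mean log2 ratio of Fcgr3 to Fcgr2b was higher in TLR9-/- than in WT libraries in 12 of 16 classes. The groups were apart in 6 of the 16, with TLR9-/- libraries above in 5. Of all ways to split 4 libraries into 2 and 2, a share of 0.333 sets the groups apart. The groups did not overlap in granulocyte precursor-like cells, where the ratio was 2.37 and 2.46 against 1.74 and 1.94, and the difference of the mean log2 ratios was 0.40. TLR9-/- libraries were also both above in basophil-like cells (difference 0.27, or 0.17 without TLR9-/- library 2). They were likewise above in mature neutrophil-like cells (0.98), where leaving out WT library 1 reduced the difference to 0.22 and leaving out WT library 2 raised it to 1.74. In erythroid-like cells (0.64), with 7 to 12 Fcgr3 UMIs per library, the difference was 0.30 without WT library 1, 0.98 without WT library 2 and −0.32 without doublets. In immature B cell-like cells (0.78), where Fcgr3 had 7 UMIs in all, it was 0.26 without WT library 1 and 1.30 without WT library 2. TLR9-/- libraries were both below in mature B cell-like cells (−1.24), where Fcgr3 had 9 UMIs in all. With the Fc receptor genes kept in the clustering, that difference was −0.47 and the groups overlapped. In classical monocyte-like cells the difference was 0.37, and the libraries overlapped (1.72 and 1.89 against 1.12 and 1.74). The exact two-sided permutation test gave p = 0.333 wherever the groups were apart, which is the smallest value that 2 libraries against 2 allow, and the 16 classes come from the same 4 mice.

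The B-cell members did not differ detectably where they were high. Fcer2a in mature B cell-like cells differed by 0.37 (standard error 0.25, adjusted p = 0.970), and without TLR9-/- library 2, the highest, by −0.026. Fcmr in the same cells differed by 0.057 (0.21, adjusted p = 0.994). Fcrla differed by 0.22 (0.20, adjusted p = 0.930) in Rag1 precursors and by 0.38 (0.27, adjusted p = 0.995) in immature B cell-like cells. In Rag1 precursors both TLR9-/- libraries lay slightly above both WT libraries, as for 1625 of the 7372 genes tested there.

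Fcrla and Fcmr were often lower in both TLR9-/- libraries than in both WT libraries, against 16.7% of all genes tested. This held in 5 of the 11 classes tested for Fcrla and 6 of the 8 for Fcmr. None of these was the class where the gene was highest. The classes come from the same mice, so they are not independent of each other. None of these differences was called. In granulocyte precursor-like cells, Fcrla had 6.62 and 6.11 CPM in TLR9-/- mice against 20.2 and 13.3 in WT mice, a log2 difference of −1.39 (standard error 0.25, adjusted p = 0.0713). This difference was −1.45 without TLR9-/- library 1, −1.33 without TLR9-/- library 2 and −1.16 without WT library 1. In erythroid-like cells, Fcrla had 2.34 and 3.97 against 20.9 and 9.93 (−2.37, 0.50, adjusted p = 0.414). Without WT library 2, the WT library nearer to the TLR9-/- ones, the difference was −2.87, with 1 WT mouse left. WT library 1 lay further away: the log2 ratio of CPM was −3.16 between the libraries numbered 1 and −1.32 between those numbered 2. Fcmr in erythroid-like cells differed by −1.33 (0.50, adjusted p = 0.789). Fcmr had 4.50 and 6.11 CPM against 14.4 and 8.65 in granulocyte precursor-like cells and 2.34 and 4.81 against 11.3 and 5.80 in erythroid-like cells, again lower in both TLR9-/- libraries. Other B-lineage transcripts were lower in these 2 classes too. Cd79a, a B-cell receptor subunit, had 44.4 and 39.2 against 146.1 and 99.8 in granulocyte precursor-like cells and 49.0 and 44.1 against 151.8 and 72.5 in erythroid-like cells. The summed level of Igkc, Ighm, Cd79a and Cd79b was 228 and 222 against 580 and 411 in the former and 148 and 132 against 493 and 252 in the latter. B-lineage classes held 15.5% and 9.43% of all UMIs in TLR9-/- mice against 29.7% and 26.3% in WT mice, and the part of shed B-lineage RNA in these differences was not tested.

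Fcmr was also lower in B-cell precursors. In Vpreb1/Igll1 precursors it had 2.90 and 4.25 CPM in TLR9-/- mice against 6.42 and 9.91 in WT mice, from 9, 7, 16 and 34 UMIs, a log2 difference of −1.27 (standard error 0.44, adjusted p = 0.303). In Myl4 precursors it had 4.29 and 6.02 against 10.1 and 10.7 (−1.09, 0.40, adjusted p = 0.690), and in Rag1 precursors 49.2 and 63.5 against 64.2 and 99.7 (−0.60, 0.28, adjusted p = 0.863). The groups did not overlap in any of these 3 classes, and none of the differences passed the adjusted threshold. Both TLR9-/- libraries were lower for 2025 of the 9422 genes tested in Vpreb1/Igll1 precursors. The same held for 1409 of 8777 in Myl4 and 1009 of 7372 in Rag1 precursors. Without WT library 2 the difference in Rag1 precursors was −0.28. Fcrla did not follow Fcmr there, with differences of 0.040 in Vpreb1/Igll1, 0.20 in Myl4 and 0.22 in Rag1 precursors. The Fcmr levels of Vpreb1/Igll1 and Myl4 precursors lay within the range of erythroid-like cells, 2.34 to 11.3 CPM. The part of shed B-lineage RNA in these low levels was not tested.

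In plasmacytoid dendritic cell-like cells, Fcrla had 97.0 and 115.5 CPM in TLR9-/- mice against 134.3 and 153.8 in WT mice, a difference of −0.44 (0.18, adjusted p = 0.769). Fcmr had 13.9 and 9.85 against 29.1 and 16.5 (−1.03, 0.35, adjusted p = 0.647), which was −0.47 without WT library 1. Cd79a was at 146.7 and 105.7 against 337.6 and 177.6 in the same cells, and its part in these differences was not tested. Fcrla in hematopoietic stem and progenitor cell-like cells had 5.0 and 3.34 against 9.94 and 8.69, from 10 to 17 UMIs per library (−1.14, 0.45, adjusted p = 0.495), and in immature neutrophil-like cells 2.80 and 3.31 against 6.96 and 4.73 (−0.82, 0.42, adjusted p = 0.996).

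Fcgrt in mature B cell-like cells had 13.7 and 10.0 CPM in TLR9-/- mice against 23.5 and 42.5 in WT mice, from 10, 19, 23 and 62 UMIs, so that both WT libraries were higher. Of the 7785 genes tested in this class, 1152 were lower in both TLR9-/- libraries. The log2 difference for Fcgrt was −1.61 (standard error 0.37, adjusted p = 0.199). The 4 monocyte genes in these cells were at 67 and 59 CPM in TLR9-/- mice against 44 and 162 in WT mice, and their part in it was not tested. Without WT library 2 the difference was −1.13.

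Whether the genotype difference itself was unlike between cell types was tested as an interaction between B cells (immature and mature) and monocytes (precursor-like and classical), with a term for each library. None of the 9 genes was called, against 0.495% of the 10699 genes tested, and DESeq2 called none. Fcgrt was the only member with an unadjusted p below 0.05, against 8.43% of all genes, with a difference of −1.12 between the log2 differences (standard error 0.33, adjusted p = 0.172). For Fcgr2b, which both cell types held at similar levels, the value was 0.31 (0.19, adjusted p = 0.691).

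With all cells of a library summed, the largest differences were those of Fcrla, Fcgr3 and Fcmr. Fcgr3 was at 91.9 and 114.4 CPM in TLR9-/- mice against 47.5 and 59.4 in WT mice, a log2 difference of 0.94 (standard error 0.19, adjusted p = 0.145). Fcrla was at 50.2 and 42.0 against 104.3 and 99.0, a difference of −1.15 (0.16, adjusted p = 0.0845), and Fcmr was at 23.1 and 37.9 against 59.5 and 55.5, a difference of −0.92 (0.26, adjusted p = 0.194). In summed cells, fewer cells of a type and less RNA per cell cannot be told apart. Monocyte classes held 25.7% and 22.5% of all UMIs in TLR9-/- mice against 12.6% and 9.82% in WT mice. Neutrophil classes held 24.9% and 34.5% against 15.1% and 28.3%, which overlapped. They supplied 36.3% to 56.9% of the Fcgr3 UMIs, and monocyte classes 26.4% to 45.2%. When every library was given the same share of UMIs from each class, a calculation chosen after seeing the data, the differences were 0.28 for Fcgr3, 0.081 for Fcrla and −0.082 for Fcmr. None of the 9 summed genes was called by edgeR, where 0.268% of genes were, although 4 had an unadjusted p below 0.05, against 17.1% of all genes. DESeq2 called Fcgr3, Fcrla and Fcmr, against 6% of all genes.

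The remaining genes of the pathway gave no call. Of 9 further Fc receptor genes, 5 passed the filter in at least 1 class, giving 23 combinations with classes, of which none was called and 3 had an unadjusted p below 0.05, all higher in TLR9-/- cells, against 6.76% of all genes. Fcer1a and Ms4a2, the α and β chains of the IgE receptor, had 1565.0 to 2214.9 and 633.5 to 773.9 CPM in basophil-like cells, and their genotype differences there were 0.23 (adjusted p = 0.894) and −0.20 (adjusted p = 0.915). Of 33 signalling partners of Fc receptors, such as Syk, Lyn, Inpp5d and Ptpn6, 32 passed the filter somewhere, giving 462 combinations, of which none was called and 37 had an unadjusted p below 0.05 (13 higher and 24 lower in TLR9-/- cells, 8.01% in all). Their median log2 difference was −0.087.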

How the data were processed

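Droplet 5′ single-cell libraries of 2 TLR9-/- and 2 WT mice were analysed from the deposited UMI counts, which the authors made with Cell Ranger (3.0.1 per the file headers) on build mm10, as whole numbers per gene and cell without normalization. The authors analysed them further with Seurat 2.3.4, and their aggregation to one depth is not in these counts. Cells with fewer than 200 or more than 10000 genes or over 10% mitochondrial UMIs were left out here. The methods print the mitochondrial limit in a form that was read as 10%. Clustering (scanpy 1.11.5, Leiden resolution 1, 30 components) used no Fc receptor gene, and clusters were named from marker lists. Clusters with over 33.3% Scrublet doublets or with granule or haemoglobin genes of another lineage above 40000 CPM stayed unnamed; other doublets were kept. In WT library 2 Scrublet's threshold marked 1 cell, so its 662 highest-scoring cells were taken as doublets for the alternative without them.

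UMIs were summed per class and library, and edgeR 4.0.16 (quasi-likelihood, TMM scaling, filterByExpr, R 4.3.3) compared 2 libraries with 2, two-sided, with Benjamini-Hochberg adjustment over all genes of the class. Replicates are separate mice. The spread behind edgeR's p-values is that between 2 mice per genotype, with information shared over genes. It includes any difference between the 2 experiments, since the main fit had no term for them. DESeq2 1.42.0 was an alternative. Ratios were tested by exact permutation. Only the edgeR test between genotypes was checked on simulated counts. These were modelled on classical monocyte-like, mature B cell-like and NK cell-like cells, with the same variability setting for every gene and no difference between experiments. The members and lists were chosen with earlier results of these data known. The rule named the 9 members, the 3 genes most like each (the first of them printed) and any called gene of 2 pathway lists, with Fcer1a, Ms4a2, Cd79a and the interferon-led cluster added after their values were seen. Macrophage-like and megakaryocyte-like cells had under 10 cells in some library and entered no test of single genes; macrophage-like cells entered the ratio of Fcgr3 to Fcgr2b.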

Additional observations from a re-analysis of the deposited data

How the results depend on the processing

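No combination of gene and class was called, and this count of 0 stayed 0 with relative log expression (RLE) size factors, without doublets, at a stricter mitochondrial limit, with libraries thinned to one depth and, chosen after seeing the data, without the interferon-led cluster. It rose to 6 without the filter on low counts, to 1 with DESeq2, at clustering resolution 2 and with the Fc receptor genes kept in the clustering, and ran from 0 to 2 when each library was left out. Over all cells summed, the count of 0 rose to 3 without the filter and to 3 with DESeq2. All of these calls lay among Fcrla, Fcmr, Fcgrt, Fcgr4 and Fcgr3. Shares of all genes called are given above only for the main edgeR fit and for DESeq2. The counts of the other settings therefore have no such share beside them, and leaving out the filter also changed which genes were tested. The cause was not tested.

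With the replicate number as a block, the counts were 4 over the classes (Fcrla in erythroid-like cells, Fcrla and Fcmr in granulocyte precursor-like cells, Fcgrt in mature B cell-like cells), 2 over all cells summed (Fcgr3 and Fcrla) and 1 for the difference between B cells and monocytes (Fcgrt). The shares of all genes called that are given above belong to fits without this block. How many of all genes the block fits called is not given here, so these counts have no scale. The labels do not say that the numbers pair libraries, although same-numbered libraries deviated together (r = 0.32 over 14194 genes in all cells).

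Several log2 differences changed sign when a library was left out: Fcgr2b in classical monocyte-like cells (−0.29 to 0.17) and mature B cell-like cells (−0.035 to 0.34, and −0.12 in libraries thinned to one depth), Fcgr1 in classical monocyte-like cells (−0.72 to 0.49), Fcgr4 in nonclassical monocyte-like cells (−0.36 to 0.028), and Fcer2a (−0.026 to 0.68) and Fcmr (−0.065 to 0.18) in mature B cell-like cells. Fcrla over all cells became 0.081 at equal class shares. Fcgr2b became −0.39 in stem and progenitor cell-like cells and 0.064 in plasmacytoid dendritic cell-like cells with the Fc receptor genes kept in the clustering, and 0.0063 in the latter at resolution 2. The difference in the log2 ratio of Fcgr3 to Fcgr2b changed sign, with a library left out, in hematopoietic stem and progenitor cell-like cells (−1.28 to 0.062), Myl4 precursors (−0.99 to 0.20), Rag1 precursors (−1.76 to 1.93), immature neutrophil-like cells (−0.17 to 0.73) and macrophage-like cells (−0.51 to 0.95). It also did so with the Fc receptor genes kept in the clustering for the stem and progenitor cells (0.70), at resolution 2 for Rag1 precursors (−0.11), Vpreb1/Igll1 precursors (0.46) and plasmacytoid dendritic cell-like cells (−0.49), and without doublets for erythroid-like (−0.32) and plasmacytoid dendritic cell-like cells (−0.25). Of the 27 genes most like the members, 15 stayed among the nearest 3 with a pseudocount of 1. A left-out library leaves 1 mouse in its group, whose spread is then assumed to equal that of the other group. Fcgr1, Fcgr4 outside 2 classes and the NK cell-like values rest on few UMIs, which limits their precision.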
